A study of Homo sapiens with 10 samples.

Results

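The 10 genes PGD, PGLS, TKT, RPIA, ME1, ME2, ME3, IDH1, IDH2 and NNT encode enzymes that make NADPH or that feed and drain the pathway that makes it. They were taken as the transcript clusters, sets of exon probes assigned to a locus, whose annotation gives exactly 1 gene symbol and that symbol is 1 of the 10. Each gene had 1 such row, so 10 of the 14232 genes with a single-symbol row were described, out of 22011 rows in all. Total RNA of SH-SY5Y cells, an established human neuroblastoma line of sympathetic neuroblast character, was hybridised to 10 Affymetrix Exon 1.0 ST arrays after depletion of ribosomal RNA. The groups were 5 arrays of cells given paraquat (titles numbered 8, 12, 14, 18 and 20) and 5 arrays of untreated cells, labelled ctrl (numbered 7, 11, 13, 17 and 19). Paraquat is a bipyridyl herbicide that takes up electrons from cellular reductases and passes them to oxygen, which gives superoxide. No source used here states the dose or the length of treatment, and all samples come from 1 cell line. Whether the arrays within a group are from separate cultures is not said in the labels, so p-values speak only of the scatter among these 10 arrays, and that scatter may be technical.

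NADPH is the electron donor with which cells regenerate reduced glutathione and thioredoxin, and it is also consumed in the synthesis of fatty acids, sterols, proline and deoxynucleotides. In the cytosol it is formed in the oxidative branch of the pentose phosphate pathway, by malic enzyme 1 and by isocitrate dehydrogenase 1, whereas mitochondria have their own isozymes and a transhydrogenase driven by the proton gradient. Reductases that hand electrons to paraquat can take them from NADPH, so that the compound draws on the same supply as the antioxidant enzymes.

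After paraquat the members moved in both directions. ME1, cytosolic malic enzyme, rose 2.50-fold (95% interval 2.06 to 3.02), TKT, transketolase, 1.84-fold (1.63 to 2.08) and PGD, 6-phosphogluconate dehydrogenase, 1.24-fold (1.09 to 1.42). Both NADP-linked isocitrate dehydrogenases fell, IDH2 of the mitochondrion by 0.69 and IDH1 of the cytosol by 0.60 on the log2 scale. PGLS, RPIA, ME2, ME3 and NNT did not pass the test. Values are log2 expression from the authors' RMA processing, a change is the paraquat mean minus the ctrl mean, and a gene was called when its limma p was under 0.05 after Benjamini-Hochberg adjustment across the 22011 rows. In all, 3 of 10 members were raised, against 9.55% of the 14232 genes, and 2 of 10 were lowered, against 14.2% of the genes. The lowered count is near that background. The raised count includes PGD, whose call did not hold in every fit with a single array left out. The members were also chosen with earlier results of these data known. Neither count is a result about the members as a group. The median change over the 10 members was -0.03, beside -0.0041 over the 14232 genes. In RNA of whole cultures, fewer cells of a type and less RNA per cell cannot be told apart.

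**Figure D1:**
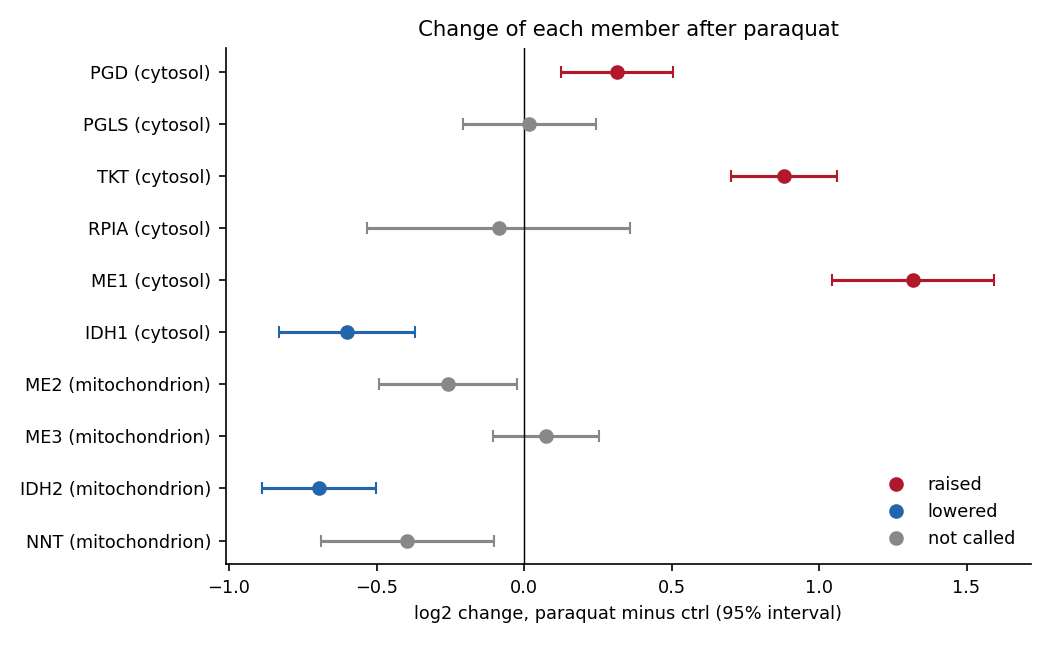
Log2 change (paraquat minus ctrl, horizontal axis) of each of the 10 members with its moderated 95% interval, in red where raised, blue where lowered and grey where not called. ME1, TKT and PGD lie to the right of 0, and IDH1 and IDH2 to the left with intervals that end at -0.37 and -0.50.

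The starts of the genes that rose, and that of IDH1, are shown because they differ in letters that resemble the antioxidant response element, to which the transcription factor NRF2 binds with a small MAF partner. The windows run from 250 bases before to 50 bases after the start of transcription in RefSeq on assembly GRCh38.p14, on the strand of the gene. Capitals mark matches, on either strand, to the core letters TGACNNNGC of that element and to TGANTCA, the AP-1 site.
ME1 (chr6:83431002-83431301, minus strand): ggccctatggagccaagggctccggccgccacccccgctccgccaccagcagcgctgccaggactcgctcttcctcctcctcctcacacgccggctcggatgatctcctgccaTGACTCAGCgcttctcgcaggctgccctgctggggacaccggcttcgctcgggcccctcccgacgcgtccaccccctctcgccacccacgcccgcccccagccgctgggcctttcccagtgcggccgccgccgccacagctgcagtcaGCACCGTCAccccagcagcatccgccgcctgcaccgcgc
TKT (chr3:53255973-53256272, minus strand): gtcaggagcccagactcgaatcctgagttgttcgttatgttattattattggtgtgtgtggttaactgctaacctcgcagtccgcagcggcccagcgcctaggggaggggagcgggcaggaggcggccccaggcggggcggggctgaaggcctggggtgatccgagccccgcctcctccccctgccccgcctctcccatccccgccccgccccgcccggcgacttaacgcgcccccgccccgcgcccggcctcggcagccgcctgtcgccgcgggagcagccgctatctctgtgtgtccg
PGD (chr1:10398814-10399113, plus strand): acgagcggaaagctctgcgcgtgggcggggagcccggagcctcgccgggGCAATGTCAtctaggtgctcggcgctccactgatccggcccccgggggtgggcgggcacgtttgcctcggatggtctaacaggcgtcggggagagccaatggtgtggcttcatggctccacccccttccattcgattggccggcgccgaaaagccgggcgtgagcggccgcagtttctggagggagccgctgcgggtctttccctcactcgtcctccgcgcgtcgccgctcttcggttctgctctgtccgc
IDH1 (chr2:208255022-208255321, minus strand): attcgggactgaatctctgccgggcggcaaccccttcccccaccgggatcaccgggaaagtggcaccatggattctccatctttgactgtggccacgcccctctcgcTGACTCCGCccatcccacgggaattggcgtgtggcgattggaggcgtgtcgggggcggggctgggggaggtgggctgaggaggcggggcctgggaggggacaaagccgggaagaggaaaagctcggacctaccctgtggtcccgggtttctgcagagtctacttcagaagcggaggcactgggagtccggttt
In ME1 the element core begins 137 bases before the start, and its first letters are also an AP-1 match, while a second match on the other strand begins 11 bases after the start. In PGD a match on the opposite strand begins 201 bases before the start, and the TKT window holds no match. IDH1, a gene that fell, has 2 windows, and the one shown holds a match that begins 143 bases before the start, while the other holds none. Matches to TGACNNNGC were found in 13.3% of 35116 promoter windows of this length and matches to TGANTCA in 7.71%. All 10 members had at least 1 of the 14 windows examined, several having more than 1 start. The element core was found for 3 of the members (ME1, PGD and IDH1). The 13.3% is a share of windows and the 3 is a count of genes, so these are unlike measures. An excess over the background was not tested. Such a match is a description of the letters and was not tested for binding.

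PGD and PGLS act in the oxidative branch of the pentose phosphate pathway, PGLS opening 6-phosphogluconolactone and PGD oxidising 6-phosphogluconate with release of NADPH. PGD (transcript cluster 2319802) read 11.99, 12.14, 12.19, 12.02 and 11.98 on paraquat arrays 8, 12, 14, 18 and 20, against 11.80, 11.92, 11.64, 11.74 and 11.63 on ctrl arrays 7, 11, 13, 17 and 19. The groups did not overlap, although ctrl 11 came within 0.06 of the lowest paraquat array. Its change was 0.32 ± 0.09 (log2 ± SE, limma adjusted p = 0.0239), larger than that of 88.2% of genes. The call ended when ctrl 13, ctrl 17, ctrl 19 or paraquat 12 was left out (adjusted p = 0.0613, 0.0549, 0.0578 and 0.0519), with changes between 0.28 and 0.36 over all 10 arrays left out in turn. PGLS (transcript cluster 3824395) read between 7.27 and 7.61 on the paraquat arrays and between 7.25 and 7.63 on the ctrl arrays. The ranges of PGLS nearly coincided, with a change of 0.02 and a 95% interval of -0.21 to 0.24 (limma adjusted p = 0.94).

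TKT and RPIA belong to the non-oxidative branch, in which RPIA interconverts ribulose 5-phosphate and ribose 5-phosphate and TKT moves carbon units between sugar phosphates, linking the pathway to glycolysis. TKT (transcript cluster 2676671) read 10.61, 10.80, 10.84, 10.82 and 10.84 on paraquat arrays 8, 12, 14, 18 and 20, against 9.80, 10.005, 9.88, 9.98 and 9.84 on ctrl arrays 7, 11, 13, 17 and 19. Every paraquat array stood above every ctrl array, and paraquat 8 lay below the other 4 treated arrays, which were nearly equal. The change of 0.88 ± 0.08 (limma adjusted p = 2.96e-05) exceeded that of 97.4% of genes. RPIA (transcript cluster 2492938) spread widely, from 7.64 to 8.65 on paraquat arrays and from 7.80 to 8.74 on ctrl arrays. Its change was -0.09 ± 0.20 with a 95% interval of -0.53 to 0.36 (limma adjusted p = 0.839).

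The malic enzymes turn malate into pyruvate. ME1 is cytosolic and NADP-linked, ME2 is mitochondrial and works mainly with NAD, and ME3 is the NADP-linked mitochondrial form. ME1 (transcript cluster 2962820) read 7.96, 8.27, 8.67, 8.14 and 8.45 on paraquat arrays 8, 12, 14, 18 and 20, against 6.92, 7.04, 7.00, 6.91 and 7.04 on ctrl arrays 7, 11, 13, 17 and 19. The untreated arrays lay within 0.13 of each other while the treated arrays were spread over 0.71, and the lowest treated array was 0.93 above the highest untreated one. The change was 1.32 ± 0.12 (limma adjusted p = 3.53e-05), above that of 98.8% of genes and the largest among the members.

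ME2 (transcript cluster 3788220) read 9.84, 9.50, 9.61, 9.56 and 9.55 on paraquat arrays 8, 12, 14, 18 and 20, against 9.72, 10.08, 9.78, 10.05 and 9.72 on ctrl arrays 7, 11, 13, 17 and 19. In 4 of 5 paraquat arrays it was below every ctrl array, and paraquat 8 was the exception. The change was -0.26 ± 0.11, did not pass (limma adjusted p = 0.123) and had a 95% interval of -0.49 to -0.02. ME3 (transcript cluster 3385307) averaged 3.97 ± 0.12 on paraquat arrays and 3.89 ± 0.07 on ctrl arrays (SD, n = 5 each), among the dimmest 20% of rows by mean (up to 4.18). Detection above background was not tested, and a row this dim may hold little but background. Its change of 0.07 (limma adjusted p = 0.617, 95% interval -0.11 to 0.26) therefore limits little about the ME3 transcript.

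IDH1 and IDH2 convert isocitrate to 2-oxoglutarate with formation of NADPH, in the cytosol and peroxisomes and in mitochondria. IDH1 (transcript cluster 2597010) read 8.08, 8.40, 8.24, 8.08 and 8.26 on paraquat arrays 8, 12, 14, 18 and 20, against 8.83, 8.81, 8.60, 8.74 and 9.07 on ctrl arrays 7, 11, 13, 17 and 19. IDH2 (transcript cluster 3638760) read 9.49, 9.71, 9.47, 9.42 and 9.41 on the same paraquat arrays, against 10.01, 10.26, 10.19, 10.22 and 10.27 on the same ctrl arrays. For both genes every treated array was below every untreated array, and paraquat 12 was the highest treated array. The change was -0.60 ± 0.10 for IDH1 (limma adjusted p = 0.00204) and -0.69 ± 0.09 for IDH2 (limma adjusted p = 0.000257). A lower change was found in 8.27% of genes for IDH1 and in 6.01% for IDH2.

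NNT, the transhydrogenase of the inner mitochondrial membrane, passes hydride from NADH to NADP at the expense of the proton gradient. NNT (transcript cluster 2808438) read 9.71, 9.31, 9.91, 9.39 and 9.48 on paraquat arrays 8, 12, 14, 18 and 20, against 10.10, 9.66, 10.08, 10.03 and 9.89 on ctrl arrays 7, 11, 13, 17 and 19. The groups overlapped: paraquat 14 was above ctrl 11 and ctrl 19, and paraquat 8 was above ctrl 11. The change of -0.40 ± 0.13 did not pass (limma adjusted p = 0.059, 95% interval -0.69 to -0.10). Without ctrl 11 it was -0.47 and without paraquat 14 it was -0.48, and both passed (limma adjusted p = 0.0254 and 0.0198).

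**Figure D2:**
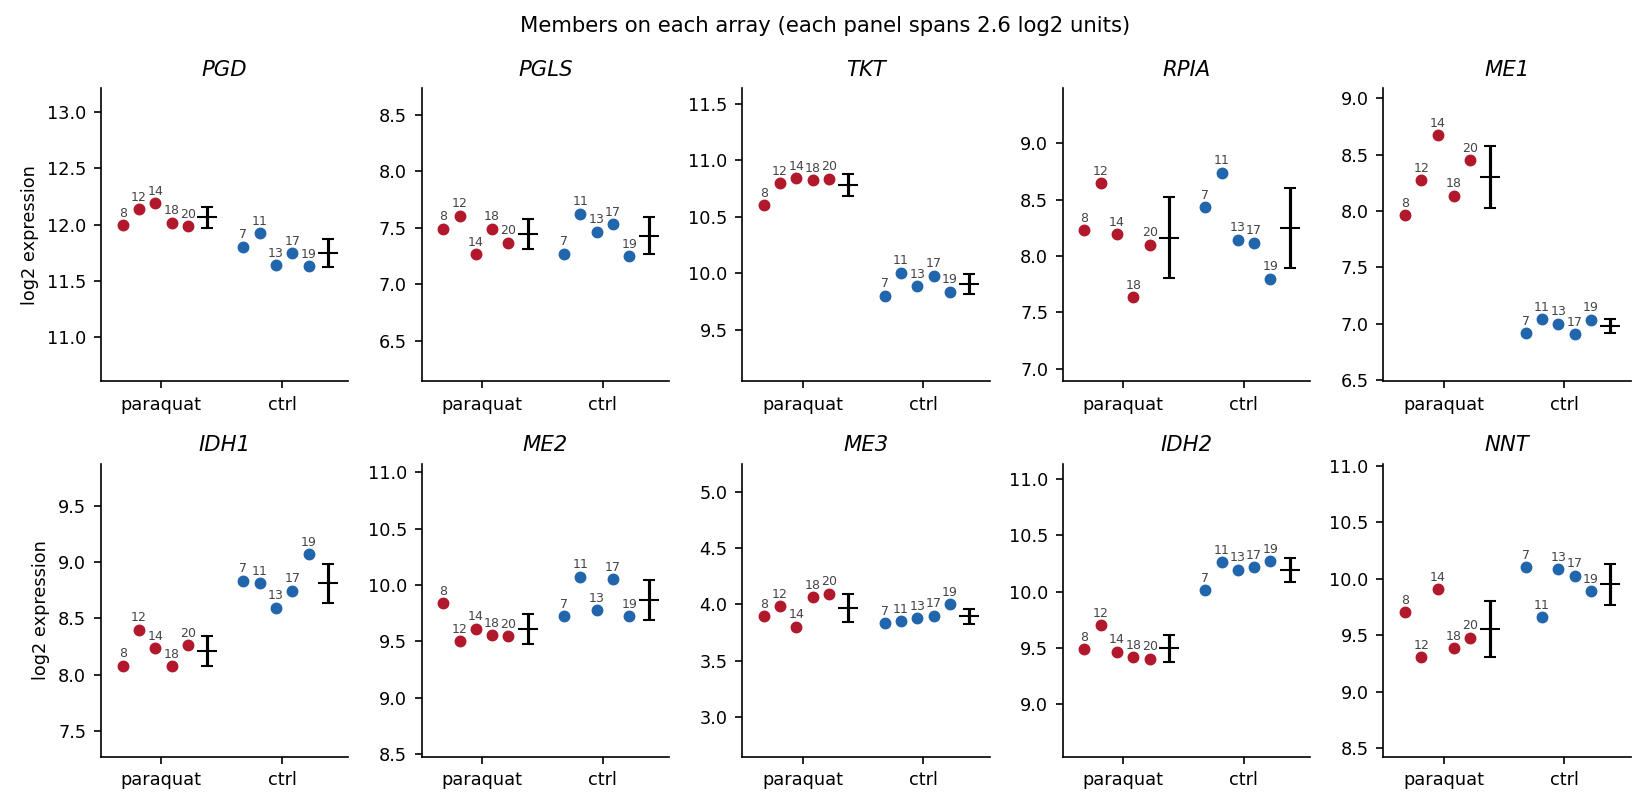
Log2 expression (vertical axis) of each member on the 5 paraquat arrays (red, left) and the 5 ctrl arrays (blue, right), numbered as in the sample titles, with mean and SD in black. The groups are separate for PGD, TKT, ME1, IDH1 and IDH2 and overlap for the other 5 members.

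The groups did not overlap in 5 of 10 members, against 19.9% of genes. The isozymes and branch neighbours were compared directly as the difference of their log2 values within each array, which tests whether their changes were unequal. Over the 6 pairs examined, p-values are from the exact two-sided permutation test, whose smallest value for 5 against 5 arrays is 0.00794, adjusted over the 6 pairs.

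ME1 minus ME2 averaged -1.31 ± 0.36 on paraquat arrays and -2.89 ± 0.19 on ctrl arrays (SD, n = 5 each), a shift of 1.58 ± 0.18 (SE, exact permutation p = 0.00794, adjusted p = 0.0159). TKT minus RPIA shifted by 0.97 ± 0.23, also without overlap between the groups (exact permutation p = 0.00794, adjusted p = 0.0159). ME1 thus changed unequally to ME2, and TKT to RPIA. PGD minus PGLS shifted by 0.30 ± 0.10 with overlapping groups (exact permutation p = 0.0317, adjusted p = 0.0476), and that call ended without ctrl 13, ctrl 17, paraquat 14 or paraquat 20 (adjusted p = 0.0833, 0.0714, 0.0595 and 0.0595). The differences ME1 minus ME3 (shift 1.25) and ME2 minus ME3 (shift -0.33) were among the 6 pairs, but the dim ME3 row may be at background. These differences are therefore taken to say nothing about the ME3 transcript and are not read as unequal change. IDH1 minus IDH2 averaged -1.29 ± 0.10 on paraquat arrays and -1.38 ± 0.18 on ctrl arrays, a shift of 0.09 ± 0.09 (exact permutation p = 0.333, adjusted p = 0.333). An unequal fall of the isocitrate dehydrogenases was therefore not detected with 5 arrays a group.

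**Figure D3:**
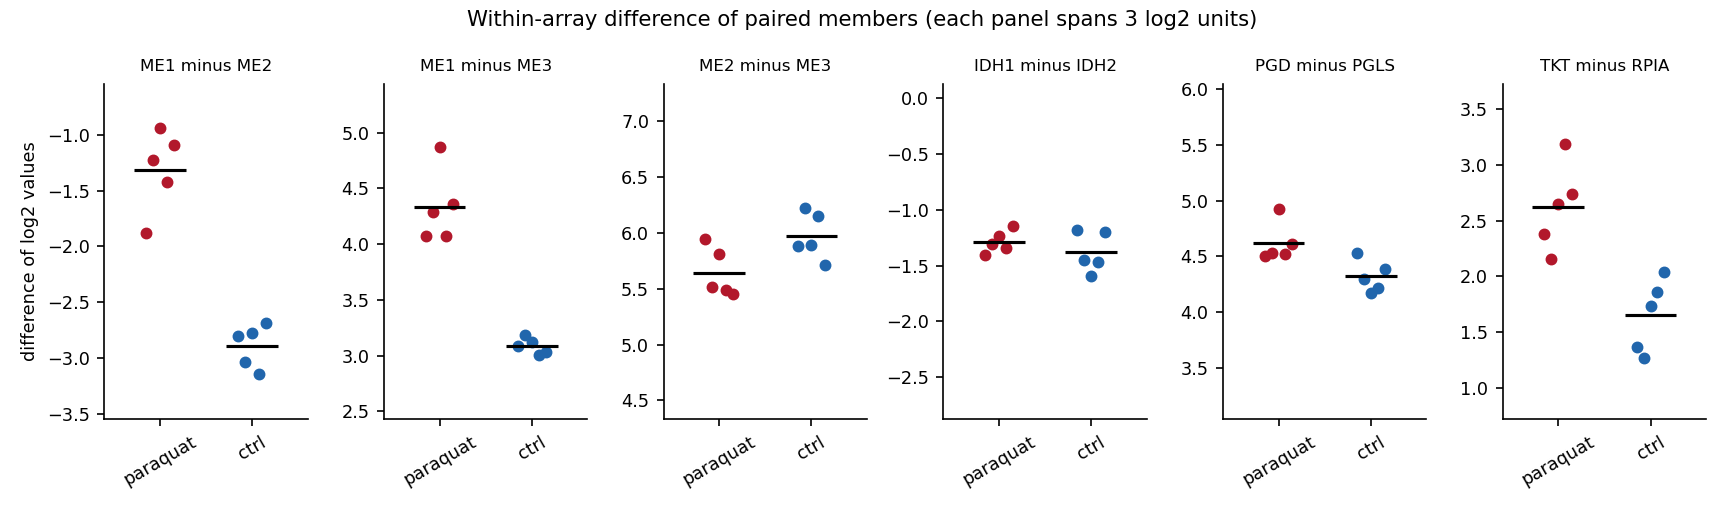
Difference of the log2 values of paired members on each array (vertical axis), 5 paraquat arrays in red on the left and 5 ctrl arrays in blue on the right, with group means as lines. ME1 minus ME2 and TKT minus RPIA do not overlap between the groups, while IDH1 minus IDH2 does.

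The arrays differed in how often they held the extreme value of a member. Ctrl 11 was the highest ctrl array for 6 of 10 members (PGD, PGLS, TKT, RPIA, ME1 and ME2) and the lowest for NNT. Paraquat 12 was the highest paraquat array for PGLS, RPIA, IDH1 and IDH2 and the lowest for ME2 and NNT, and paraquat 14 was the highest for PGD, TKT, ME1 and NNT. Without both ctrl 11 and paraquat 12 the raised members were again 3 and the lowered members 3, NNT having passed with a change of -0.41 (limma adjusted p = 0.0469).

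For each called member, the genes with the most similar pattern were found as those with the smallest root mean square difference of values centred on their own mean over the 10 arrays. ME1 was closest to POLH, a translesion DNA polymerase (0.12), and MTCL1, a microtubule-crosslinking protein (0.13). TKT was closest to MFSD2A, a lysophospholipid transporter, and the pseudogene SCAND2P, both at 0.08. PGD was closest to HUS1, a subunit of the DNA damage checkpoint clamp, and MKRN1, a ubiquitin ligase, both at 0.06. The rise of MKRN1 was no longer called without ctrl 13, ctrl 17, ctrl 19 or paraquat 20 (limma adjusted p up to 0.0635), nor with all rows of the gene averaged (0.24, limma adjusted p = 0.178). IDH1 was closest to the RNA-binding protein SYNCRIP and the dehydrogenase DHRS1, both at 0.10. IDH2 was closest to NARF, a prelamin-binding protein (0.07), and the uracil-DNA glycosylase SMUG1 (0.08). The measure weighs the group difference and the single arrays together, and for MTCL1, for example, the change was 1.23, beside 1.32 for ME1. It is not scaled to the size of a member's change, so distances should not be compared between members.

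Around the members, 58 of 90 genes in 8 lists of NADPH supply and use had a single-symbol row, of which 8 rose and 15 fell, where 9.55% of all genes rose and 14.2% fell. Single lists are small, and a count such as 1 of 7 or 2 of 10 lies near that background. Of 7 other enzymes of pentose phosphate metabolism, 1 rose and 0 fell, at a median change of -0.13. The one that rose was TIGAR, a phosphatase that lowers fructose 2,6-bisphosphate and so favours entry of glucose 6-phosphate into the pathway, at 9.04 ± 0.24 on paraquat arrays and 7.81 ± 0.47 on ctrl arrays (SD, n = 5 each, limma adjusted p = 0.00192). A row assigned to both TALDO1, transaldolase, and INTS8 fell by 0.69 (limma adjusted p = 0.00543), against the direction of TKT, and its signal cannot be divided between these genes. Of 3 genes that make phosphoribosyl pyrophosphate from the pathway's ribose 5-phosphate, PRPS2 fell by 0.44 (limma adjusted p = 0.0102) and 0 rose. A row assigned to both SHPK, which makes sedoheptulose 7-phosphate, and TRPV1 fell by 0.52 (limma adjusted p = 0.000682), while a second row of this pair of genes changed by 0.07 (limma adjusted p = 0.874). A row assigned to both PRPS1 and PRPS1L1 fell by 0.84 (limma adjusted p = 0.00059).

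Folate enzymes, some of which form NADPH while oxidising one-carbon units, split into 3 raised and 2 lowered of 7 (median 0.11). The mitochondrial MTHFD2 rose by 0.94 ± 0.12 and SHMT2, mitochondrial serine hydroxymethyltransferase, by 0.67 ± 0.09. Their cytosolic relatives SHMT1 and MTHFD1 fell by 0.88 and by 0.53. MTHFD2L, a mitochondrial relative of MTHFD2, rose by 0.33, a call that ended when any of 6 arrays was left out (ctrl 7, 17 or 19, or paraquat 8, 14 or 20, largest limma adjusted p = 0.0673). Of 9 genes of NAD synthesis and phosphorylation 2 rose and 0 fell (median -0.01): NAMPT, which opens NAD salvage, by 1.48 ± 0.13, and NADSYN1, NAD synthetase, by 0.57 ± 0.08. A row assigned to both QPRT, quinolinate phosphoribosyltransferase, and SPN fell by 0.56 (limma adjusted p = 0.00375), and the other row of these genes changed by 0.04 (limma adjusted p = 0.836). The kinases that make NADP from NAD had changes of -0.06 for NADK (limma adjusted p = 0.81) and -0.22 for NADK2 (limma adjusted p = 0.411).

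A list of carriers and enzymes that move, make or use citrate, malate, 2-oxoglutarate or pyruvate had the lowest list median, -0.59, with 6 of 10 lowered and 0 raised. It also held the aspartate-glutamate carriers SLC25A12 and SLC25A13, neither of which was called. SLC25A10, the dicarboxylate carrier, fell by 1.02, the pyruvate carrier subunit MPC1 by 0.98, SLC25A1, the citrate carrier, by 0.92 and SLC25A11, the 2-oxoglutarate carrier, by 0.64. PC, pyruvate carboxylase, fell by 0.57. ACLY, which cleaves citrate in the cytosol, fell by 0.50, a call that ended after quantile normalization (limma adjusted p = 0.0503). Of 6 related dehydrogenase genes, NAD-linked except for the FAD-linked GPD2, 2 fell and 0 rose (median -0.17). The 2 lowered genes were IDH3G, a subunit of the NAD-linked isocitrate dehydrogenase, and MDH2, mitochondrial malate dehydrogenase, both by 0.27. These calls lay at the threshold (limma adjusted p = 0.0478 and 0.048), and both ended after quantile normalization (0.167 and 0.223). Each also ended in 8 of the 10 fits with 1 array left out: those without ctrl 7 and ctrl 11 kept the IDH3G call, and those without ctrl 7 and paraquat 14 kept the MDH2 call (limma adjusted p up to 0.118 for IDH3G and 0.123 for MDH2 in the others).

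Among 10 reductase genes listed mainly for spending NADPH on disulfides, quinones and haem breakdown, 2 rose and 2 fell (median 0.26). The list also held CYBRD1, a ferric reductase that takes electrons from ascorbate, and AKR1C3, chiefly a ketosteroid reductase. Neither was called, and the median lies between their changes of 0.26 and 0.27. A row assigned jointly to AKR1C1, AKR1C2 and AKR1C3 changed by 1.19, just short of a call (limma adjusted p = 0.0506). TXNRD1, cytosolic thioredoxin reductase, rose by 1.28 ± 0.09 and GSR, glutathione reductase, by 0.82 ± 0.09. CRYZ, a quinone reductase, fell by 1.03 and BLVRA, biliverdin reductase A, by 0.62, the last with overlapping groups. The BLVRA call ended without ctrl 7, ctrl 17, paraquat 14, paraquat 18 or paraquat 20 (limma adjusted p up to 0.0631). A row assigned to both NQO1, a quinone reductase, and NFAT5 rose by 1.96 (limma adjusted p = 2.98e-05). A row assigned to both CBR3, a carbonyl reductase, and DOP1B rose by 0.52 (limma adjusted p = 0.0418), a call that ended in 8 of the 10 fits with 1 array left out (largest limma adjusted p = 0.104), those without ctrl 11 and ctrl 19 being the exceptions. Of 6 enzymes that spend NADPH on lipids and proline, 2 fell and 0 rose (median -0.36), namely TM7SF2 of sterol synthesis (-0.98 ± 0.11) and ALDH18A1 of proline synthesis (-0.71 ± 0.10). The change of FASN, fatty acid synthase, was -0.54 and was not called (limma adjusted p = 0.109), but without ctrl 11 it passed at -0.70 (limma adjusted p = 0.0147).

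**Figure D4:**
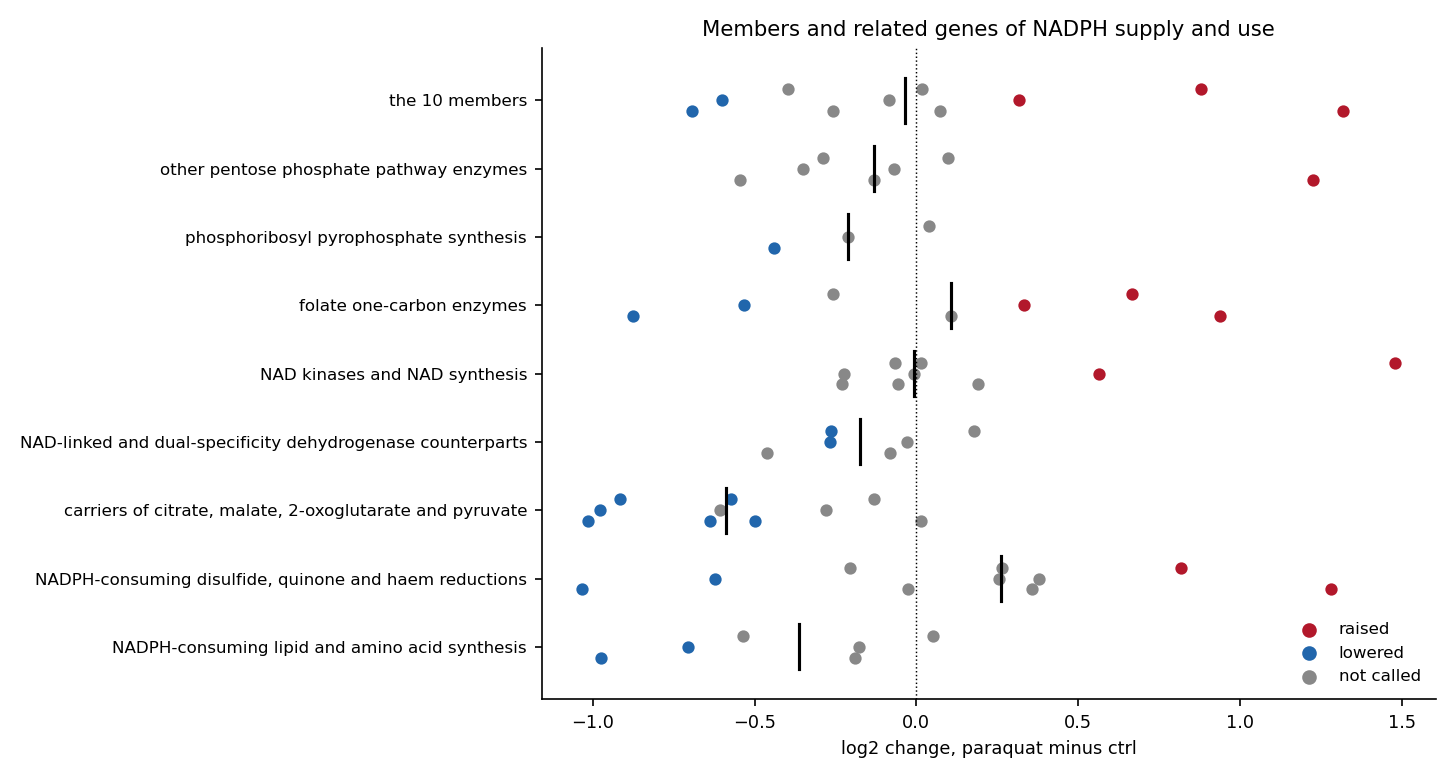
Log2 change (paraquat minus ctrl, horizontal axis) of the 10 members and of the 58 related genes in 8 lists, 1 point a gene, red where raised, blue where lowered and grey where not called, with list medians as vertical bars. The list of carriers lies furthest to the left, with a median of -0.59.

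The labelled cell type was checked on the same arrays. Of 7 sympathetic neuroblast markers with a single-symbol row, 6 were above the mean array median in ctrl cells, and group means ran between 6.25 and 12.11 in paraquat cells and between 6.31 and 12.44 in ctrl cells. In paraquat cells 6 of the 7 were lowered, against 14.2% of the 14232 genes. The exception was TH, with a change of -0.06 (limma adjusted p = 0.685). The leukocyte markers PTPRC, CD3E and LYZ were among the dimmest rows. They averaged 2.72, 2.87 and 2.26 in paraquat cells and 2.67, 2.84 and 2.28 in ctrl cells. Of the 5 leukocyte markers 2 rose, CD68 by 1.33 and CD14 by 0.64, where 9.55% of all genes rose. Of 5 fibroblast markers 4 were above the mean array median in ctrl cells and 1, LUM, fell. Their group means ran between 5.64 and 9.72 in paraquat cells and between 5.66 and 10.34 in ctrl cells, highest for COL3A1. These ranges overlap those of the neuroblast markers, so the levels alone do not set the cell types apart. The 4 glial markers were below it, and 1, FABP7, fell. The part of these shifts in the members' changes was not tested.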

How the data were processed

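The deposited table holds log2 expression values for 22011 transcript clusters on 10 arrays, made by the authors with RMA (background subtraction, normalization between arrays and probe summarisation), per the submitters' processing notes. The log2 scale was read from the values, which run from 1.07 to 14.37. Neither the software version nor filters nor the build of the genome is stated in the sources used. RMA pulls weak signals together, so changes of dim rows are understated. Array medians lay between 6.78 and 6.93.

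Symbols came from the platform annotation: 14432 rows had 1 symbol, 2408 several and 5171 none. The row with the highest mean stood for a gene (197 genes had several). Paraquat was compared with ctrl by limma 3.58.1 in R 4.3.3 (lmFit and eBayes, group as the only term, no filter, 8 residual and 3.06 prior degrees of freedom, two-sided). Errors of changes are moderated standard errors, and intervals are 95%. The number of arrays limits the precision (median SE 0.13). The fit was also run on simulated data with independent values and 200 changed rows. That run checks the code only and does not bear on the results.

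The members and lists were chosen with earlier results of these data known. The text names all members, in each list up to 4 called genes with the largest absolute change and any called against the majority, and the 2 nearest genes of each called member. MTHFD2L, ACLY, PC and the rows with several symbols were added after their values were seen, as were NADK, NADK2 and FASN. Alternatives were 2 further scalings, removal of dim rows, array weights, a trended robust prior, a minimum fold of 1.2, an adjusted p under 0.01, averaged rows, and arrays left out. A block by consecutive title numbers was added after seeing the data.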

Additional observations from a re-analysis of the deposited data

Results flagged for a closer look

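A single array stood apart from the others of its group, by Dixon's gap test for 5 values, in 6 of 104 groups of arrays examined for the named genes. Chance gives about 1 in 20. Among the members, TKT was 10.61 on paraquat 8, against 10.80 to 10.84 on the other treated arrays. IDH2 was 9.71 on paraquat 12, against 9.41 to 9.49 on the others. On the same array TIGAR was 9.46 (others 8.85 to 9.00), MTHFD2 was 11.68 (others 11.29 to 11.39) and ACLY was 10.71 (others 11.04 to 11.17). MTHFD2L was 5.07 on ctrl 19, against 5.26 to 5.34 on the other untreated arrays.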

How the results depend on the processing

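Title numbers run consecutively (ctrl 7 and paraquat 8, and so on), but no label says that they mark pairs. With these numbers as a replicate block, an assumed pairing chosen after seeing the data, 3 members rose and 3 fell. NNT passed at -0.40 (limma adjusted p = 0.0167), lower in 5 of 5 such pairs by -0.64 to -0.18, FASN also passed (0.0143) and IDH3G did not (0.0615). Deviations from the group means correlated at 0.09 to 0.46 within these pairs over the 22011 rows. Of the 5 paraquat arrays, 3 correlated best with their own ctrl number. Paraquat 14 and paraquat 18 correlated better with another ctrl array (0.0961 against 0.0912, and 0.317 against 0.172). Such correlations do not settle whether the numbers mark pairs. The main fit has no block because no label states a pairing. Of 199 member changes recomputed under 19 alternatives and this block, 180 kept their direction and their side of the threshold, 0 called changes reversed, 7 lost the call (PGD and IDH1), 6 gained it (NNT) and 6 uncalled ones (PGLS and RPIA) turned sign near 0. Of 839 changes of the other named genes, 72 lost the call and 0 reversed. Against a minimum fold of 1.2 the number of members changed was 3, with 1 lowered (IDH1 missed at adjusted p = 0.0528), and 7 related genes were lowered. At an adjusted p under 0.01, 9 related genes were lowered. With 1 array left out, 4 to 6 members changed, 2 to 3 raised and 2 to 3 lowered, and of the related genes 7 to 9 were raised and 12 to 16 lowered. Without ctrl 11 and paraquat 12 together, the pair shifts were 1.52 for ME1 minus ME2, 1.28 for ME1 minus ME3, 0.31 for PGD minus PGLS and 0.99 for TKT minus RPIA, and none was called (adjusted p from 0.0571 to 0.129). With 4 against 4 arrays the smallest exact permutation p is 0.0286, or 0.0571 when 3 pairs reach it, so the ME1 and TKT pairs could not pass and nothing follows about their stability. With 1 array left out, PGD minus PGLS shifted by 0.22 to 0.35 and ME2 minus ME3 by -0.41 to -0.27. The pairs with ME3 are taken to say nothing about ME3, whose dim row may be at background.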
